A study of Homo sapiens with 3 samples.

Results

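The genes described here are 10 members of the SOX family of transcription factors, SOX1, SOX2, SOX3, SOX4, SOX8, SOX9, SOX10, SOX11, SOX15 and SOX21, taken by name from the 58051 genes with counts. Their levels were measured by RNA-seq in H9, an established line of human embryonic stem cells (hESCs). The 3 replicates were wild type and untreated, and were grown without feeder cells, on Vitronectin-XF and in the medium Essential 8 Flex, so the series holds 1 condition and no control group. Each replicate gave 1 library of total RNA depleted of ribosomal RNA, and the counts on genes summed to 10390984 in replicate 1, 12024802 in replicate 2 and 8655155 in replicate 3. The question asked here is how much RNA each SOX gene contributed in these cells, and how far that level was shared by the 3 libraries.

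SOX proteins bind DNA through the HMG box, a domain that sits in the minor groove and bends the helix, and they usually act with partner factors. The family is divided by sequence into groups named with letters. Group B1 (SOX1, SOX2, SOX3) is known for the pluripotent and neural progenitor states, and SOX2 pairs with OCT4, the product of POU5F1, on shared sites in embryonic stem cells. Group C (SOX4, SOX11 and SOX12) is known for progenitors of the nervous system and other tissues. Group E (SOX8, SOX9, SOX10) is known for neural crest, glia, cartilage and gonad. SOX21 belongs to group B2, whose members are mostly repressors, and SOX15 is the single member of group G.

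Levels are given as TPM (transcript abundance per length, scaled to a fixed sum in each library), computed from the deposited counts and the summed exon length of each gene, so that they can be compared between genes. The spread over the 3 replicates is given as the SD. In RNA from a whole culture, expression in few cells and little RNA per cell cannot be told apart. Of 9 pluripotency genes examined, 8 were in the upper class of protein-coding genes by level, and their summed TPM was 6614 to 6802. The exception was UTF1, a chromatin factor of pluripotent cells, with a mean of 19.7 ± 10.3 TPM. The markers thus fit the label of the cells as hESCs. Markers of other lineages are given beside the SOX genes they accompany.

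The box is the stretch that makes these genes a family, and it is also where their transcripts are most alike, which bears on how reads can be assigned. A stretch of 222 bases that encodes 74 residues of the box was aligned without gaps among the 10 genes, and 65.8% to 91.9% of its bases were identical over the 45 pairs. SOX1 and SOX2 were the closest pair, with 18 bases and 3 encoded residues different. SOX3 differed from SOX2 at 34 bases and 7 residues. The stretches of group B1 are shown from the reference genome GRCh38 (hg38), 5′ to 3′ on the coding strand, to let the unbroken identical runs be seen. Capitals mark the bases that differ from SOX2. All 3 lie in the coding sequence of a gene with a single exon.
SOX2, chr3:181712484-181712705, plus strand: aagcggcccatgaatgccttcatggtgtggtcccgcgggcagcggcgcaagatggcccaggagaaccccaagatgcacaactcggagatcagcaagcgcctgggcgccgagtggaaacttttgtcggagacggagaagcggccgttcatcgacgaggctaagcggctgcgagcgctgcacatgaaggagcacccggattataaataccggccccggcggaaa
SOX1, chr13:112067812-112068033, plus strand: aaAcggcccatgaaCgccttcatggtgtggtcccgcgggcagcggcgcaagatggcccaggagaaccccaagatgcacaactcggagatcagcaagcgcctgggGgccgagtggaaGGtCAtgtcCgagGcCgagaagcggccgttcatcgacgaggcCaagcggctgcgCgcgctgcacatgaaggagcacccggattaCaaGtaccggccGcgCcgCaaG
SOX3, chrX:140504422-140504643, minus strand: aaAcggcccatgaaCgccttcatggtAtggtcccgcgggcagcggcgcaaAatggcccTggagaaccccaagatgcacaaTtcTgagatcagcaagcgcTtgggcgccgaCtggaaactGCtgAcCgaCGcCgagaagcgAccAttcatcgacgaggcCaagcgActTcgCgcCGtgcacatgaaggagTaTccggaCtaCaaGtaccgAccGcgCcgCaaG

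In group C, the stretch of SOX4 also lies in the coding sequence of a gene with a single exon. It is shown, with no base in capitals, because SOX4 was after SOX2 the most highly expressed gene of the family and its box differed widely from that of SOX2.
SOX4, chr6:21594712-21594933, plus strand: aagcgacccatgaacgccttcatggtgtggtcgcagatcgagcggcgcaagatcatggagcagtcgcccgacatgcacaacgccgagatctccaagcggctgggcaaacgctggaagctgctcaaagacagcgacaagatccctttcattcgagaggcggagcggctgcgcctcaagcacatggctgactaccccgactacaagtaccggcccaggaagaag

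Group E was as tightly related, with 91.4% identical bases and 1 different residue between SOX8 and SOX9, and 90.5% between SOX9 and SOX10. In these 3 genes the stretch is split by an intron. SOX21 shared 88.7% of bases with SOX2 and differed from it at 4 residues, whereas SOX2 and SOX4 shared 68.0% of bases.

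**Figure D1:**
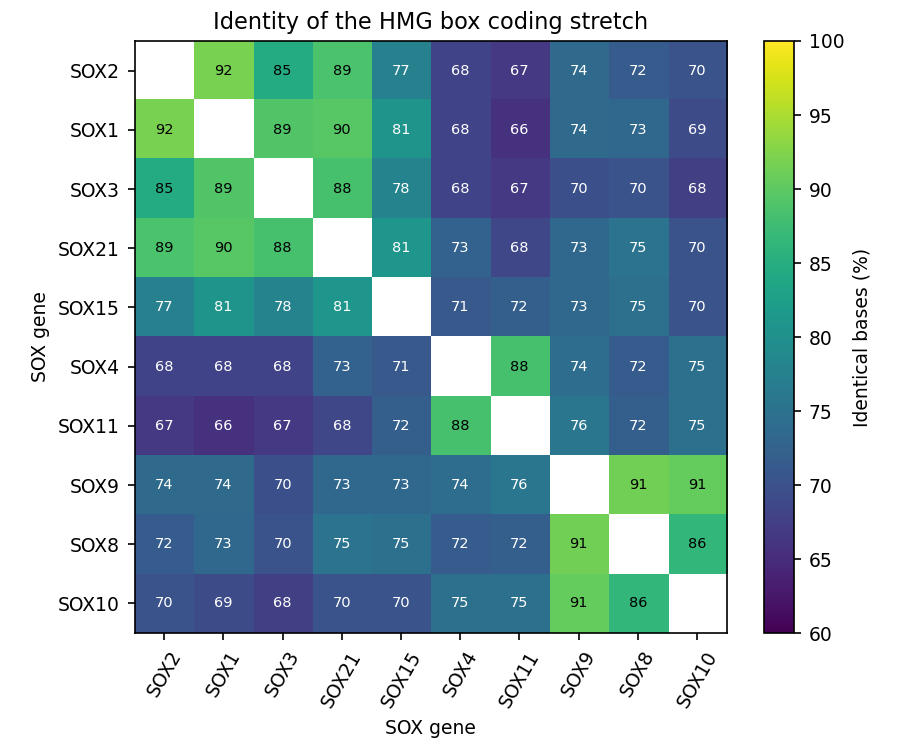
Percent of identical bases in the 222-base HMG box coding stretch for every pair of the 10 SOX genes, which are on both axes, with the color scale running from 60% to 100%. Groups B1 and B2 (SOX2, SOX1, SOX3, SOX21), C (SOX4, SOX11) and E (SOX9, SOX8, SOX10) form blocks of 84.7% or more.

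The levels of the 10 genes spanned a range of 652 ± 147-fold (SD, n = 3) from SOX2 to SOX10. The median over the 10 genes was 31.2 TPM, and 26.1% of the 19629 protein-coding genes were above that value. With the thresholds of the study, which call a gene below 0.01 TPM nonexpressed and divide the rest into 3 quantiles, 5 of the 10 were high (SOX2, SOX4, SOX11, SOX21, SOX3), 3 were medium (SOX15, SOX9, SOX8) and 2 were low (SOX1, SOX10). None was nonexpressed. Of all protein-coding genes, 28.8% were in the high class. Each of the 10 genes kept its class when each replicate was classified alone, with boundaries drawn anew. The boundary between low and medium was then 4.23, 4.32 and 4.75 TPM in replicates 1, 2 and 3, against 3.35 TPM for the mean. SOX1, at 3.86 TPM in replicate 3, was above the boundary for the mean but below that of the replicate.

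**Figure D2:**
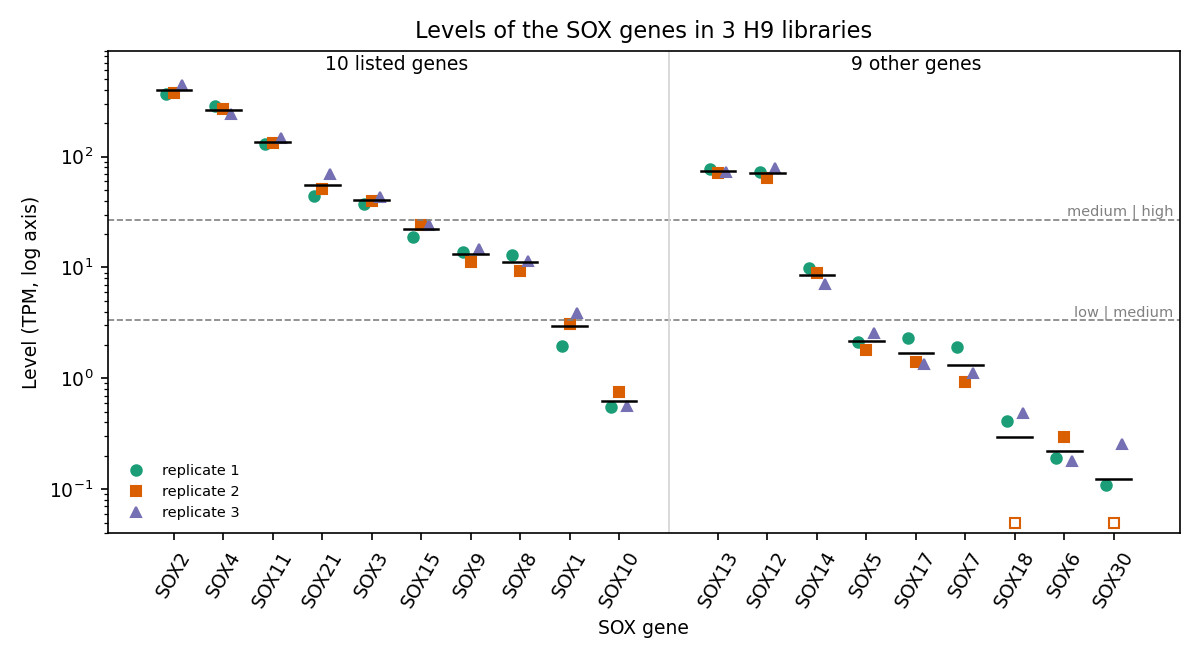
Level of each SOX gene (TPM, log axis) in the 3 replicates, for the 10 genes on the left and the 9 other SOX genes outside the Y chromosome on the right, with a horizontal bar at the mean and dashed lines at the class boundaries of 3.35 and 27.0 TPM. Open symbols at the lower edge are counts of 0, and the mean levels of the 10 genes run from 0.624 TPM for SOX10 to 397 TPM for SOX2.

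SOX2 (ENSG00000181449, chr3:181711925-181714436, plus strand) holds the pluripotency network together with OCT4 and NANOG. It had 2400, 2873 and 2486 reads in replicates 1, 2 and 3, which correspond to 367, 378 and 446 TPM (397 ± 42.7, SD, n = 3). Its mean ranked 286 among protein-coding genes, and the genes nearest to it by level were COX7C, a subunit of cytochrome c oxidase (398 TPM), and ALYREF, an mRNA export factor (395 TPM). Replicate 3 was the highest, and replicates 1 and 2 lay close together.

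SOX3 (ENSG00000134595, chrX:140502985-140505069, minus strand), a group B1 gene of early neural tissue and the pituitary, had 203, 253 and 200 reads and 37.4, 40.1 and 43.2 TPM (40.2 ± 2.91, SD, n = 3). SOX2 exceeded it by 9.81, 9.43 and 10.3-fold in the 3 replicates. This was the steadiest of the ratios computed within a group, with a mean of 9.85 ± 0.447. SOX1 (ENSG00000182968, chr13:112067149-112071706, plus strand), an early marker of neuroectoderm, had 23, 43 and 39 reads and 1.94, 3.12 and 3.86 TPM (2.97 ± 0.967, SD, n = 3). The exact Poisson 95% interval of its summed count, which covers counting error only, corresponds to 2.43 to 3.596 TPM. SOX1 was the lowest of group B1 in every replicate, and SOX2 exceeded it by 189, 121 and 116-fold.

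The identical run shared by SOX1 and SOX2 touches the value of SOX1. It is 89 bases long, within the stretches shown above. At the read density of SOX2, such a run would hold 275 reads over the 3 libraries, whereas 105 were counted on the whole of SOX1. Only reads that lie wholly within the run match both genes exactly, so 275 is not a count of shared reads. Neither the read length nor the treatment of reads with several matches is given in the sources used here, and the part of shared reads in the SOX1 counts was not tested. Most markers of neuroectoderm were as low as SOX1 or lower. Of 6 such genes, SIX3 (a homeobox gene of the forebrain and eye) was high with 46.0 TPM, PAX6 was at 1.74 TPM, 4 were below 1 TPM, and NEUROG2 was listed at 0 in all 3 libraries.

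SOX4 (ENSG00000124766, chr6:21593751-21598619, plus strand), an activator in many progenitor cells, had 3603, 3921 and 2640 reads and 284, 266 and 244 TPM (265 ± 20.01, SD, n = 3). In contrast to SOX2, it was lowest in replicate 3. SOX11 (ENSG00000176887, chr2:5692384-5701385, plus strand), a related activator of neural progenitors and neurons, had 3062, 3585 and 2914 reads and 131, 132 and 146 TPM (136 ± 8.51, SD, n = 3). SOX4 exceeded SOX11 by 1.96 ± 0.256-fold in TPM, in 3 of 3 replicates. In reads without regard to length, the ratio was 1.06 ± 0.139 and was above 1 in 2 of 3 replicates, since the exons of SOX11 sum to 9002 bp and those of SOX4 to 4869 bp. The third gene of the group, SOX12, was at 71.7 ± 7.84 TPM.

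SOX21 (ENSG00000125285, chr13:94709622-94712545, minus strand), which counteracts group B1 activators in neural progenitors, had 336, 455 and 456 reads and 44.1, 51.4 and 70.3 TPM (55.3 ± 13.5, SD, n = 3). It varied most among the 5 high genes, with a coefficient of variation of 24.4%. SOX14, its partner in group B2, was at 8.62 ± 1.39 TPM. The ratio of SOX21 to SOX14 was 4.46, 5.82 and 9.84 in replicates 1, 2 and 3. SOX21-AS1, a noncoding gene on the other strand that shares no exon base with SOX21, had 146, 156 and 139 reads and 11.6 ± 1.14 TPM. A run of 60 bases is identical between SOX21 and SOX2. At the density of SOX2 it would hold 185 reads, against 1247 counted on SOX21. Not all of the 185 need lie wholly within the run.

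SOX15 (ENSG00000129194, chr17:7588178-7590094, minus strand), whose box is closest to groups B1 and B2 and which is known from mouse embryonic stem cells and muscle precursors, had 72, 106 and 78 reads and 18.9, 23.9 and 24.0 TPM (22.3 ± 2.93, SD, n = 3). Its exons share 35 bp with MPDU1, a gene on the other strand with 548, 678 and 459 reads. Since the use of strand in counting is not given in the sources used here, reads on those bases cannot be told apart.

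The 3 genes of group E summed to 24.99 ± 3.34 TPM, close to SOX15 alone and far below groups B1 and C, which summed to 440 ± 46.3 and 473 ± 12.9 TPM. SOX9 (ENSG00000125398, chr17:72121020-72126416, plus strand), which drives cartilage and testis development, had 140, 132 and 127 reads and 13.7, 11.1 and 14.6 TPM (13.1 ± 1.80, SD, n = 3). SOX8 (ENSG00000005513, chr16:981770-986979, plus strand), which acts with SOX9 and SOX10 in several tissues, had 152, 126 and 113 reads and 13.1, 9.31 and 11.4 TPM (11.3 ± 1.88, SD, n = 3). The ranges of SOX8 and SOX9 overlapped.

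SOX10 (ENSG00000100146, chr22:37970686-37987422, minus strand), the factor of neural crest, Schwann cells and oligodendrocytes, had 7, 11 and 6 reads and 0.557, 0.753 and 0.560 TPM (0.624 ± 0.112, SD, n = 3). The Poisson interval of its 24 reads corresponds to 0.399 to 0.928 TPM. It was the lowest of the 10 genes in all 3 replicates, and SOX9 exceeded it by 21.8 ± 6.13-fold. The genes nearest to it by level were GCNT3 and CDHR4, each at 0.62 TPM. A run of 45 bases is identical in SOX9 and SOX10 and would hold 4.57 reads at the density of SOX9. These too need not lie wholly within the run. On the other strand, 260 bp of exon are shared with POLR2F, which encodes a subunit common to the RNA polymerases and was listed at 0, 0 and 1 reads. How reads on overlapping genes were counted is not given in the sources used here. Neither the count of POLR2F nor that of SOX10 can therefore be taken as complete, and the effect of the overlap was not tested.

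The markers that accompany group E in other tissues were mixed. Among genes of neural crest and glia, PAX7 (a paired box factor) was high with 34.0 TPM, and TFAP2B, PAX3 and S100B were below 1 TPM. None of 4 chondrocyte genes was high, and COL2A1, the type II collagen gene regulated by SOX9 in cartilage, was at 7.61 TPM. Of 5 genes of definitive endoderm, 1 was high, and of 6 genes of mesoderm, none was. Their part in the levels of SOX8, SOX9 and SOX10 was not tested.

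By mean TPM, the order of the 10 genes was SOX2, SOX4, SOX11, SOX21, SOX3, SOX15, SOX9, SOX8, SOX1 and SOX10. All 9 neighbouring pairs stood in this order in 3 of 3 replicates. Since 3 values against 3 cannot give an exact permutation p below 0.1, ranges were compared instead. The ranges of neighbours were separate in 8 of the 9 pairs. SOX9 and SOX8 overlapped over the libraries, with a difference of 1.86 TPM in the mean against an SD of 1.88 for SOX8. Within each library SOX9 was nevertheless above SOX8 in TPM, by 0.22 ± 0.15 on the log2 scale (SD, n = 3). In reads without regard to length, the ratio of SOX9 to SOX8 was 1.03 ± 0.102 and was above 1 in 2 of 3 replicates. Relative to the spread, the narrowest of the other steps was from SOX21 to SOX3, with 15.04 TPM against an SD of 13.5 for SOX21.

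The order of the means depended on length for 2 pairs of neighbours and for the top of the list. In CPM (reads scaled to the total of a library), which ignores length, SOX4 (326 CPM) stood above SOX11 (310 ± 23.3 CPM) and SOX2 (252 CPM), and SOX2 was below SOX4 in 3 of 3 replicates. SOX9 (13.0 CPM) stood above SOX15 (8.25 CPM). Both scales placed SOX10 last. When lengths were restricted to exon bases that no other gene shares, the order was kept and the 10 levels were multiplied by 0.486 to 0.513, a near-common factor that came from the scaling over all genes, since SOX2 and others share no exon base.

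The 19 SOX genes outside the Y chromosome summed to 1103 ± 57.0 TPM, of which the 10 listed genes held 85.5 ± 0.759%. SOX2 held 35.9 ± 2.07%, SOX4 24.1 ± 2.86% and SOX11 12.3 ± 0.177%, which came to 72.3 ± 0.711%. The sum of these 3 varied less than the shares of SOX2 and SOX4, which moved in opposite directions between replicates. By group, C held 42.9 ± 2.53% and B1 39.8 ± 2.24%, and E held 2.26 ± 0.273%. In CPM, C held 58.9% and B1 22.6%.

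**Figure D3:**
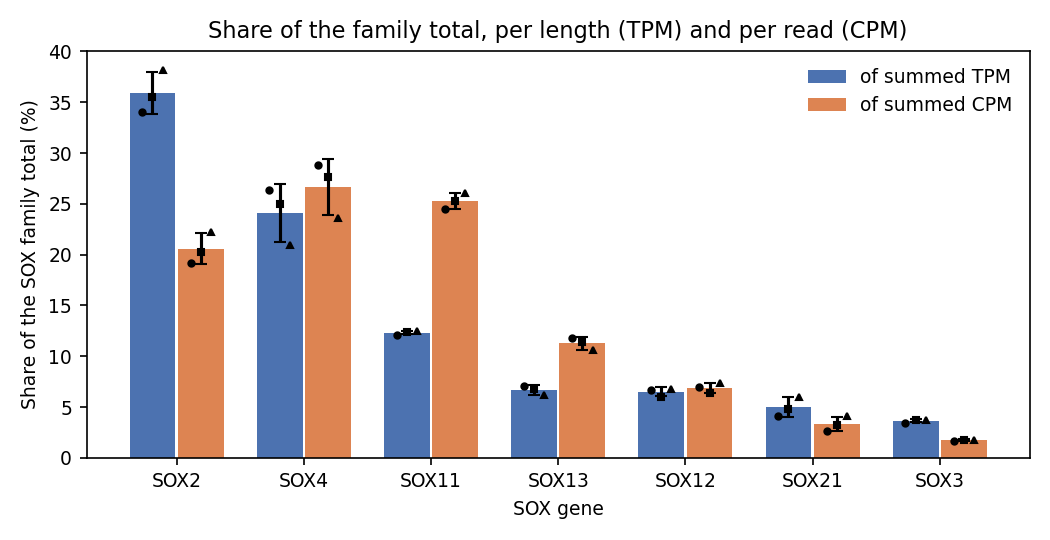
Share of the summed level of the 19 SOX genes (%) held by the 7 genes with the largest shares, from TPM and from CPM, as bars for the mean with the SD over 3 replicates as error bars and symbols for replicates 1 (circle), 2 (square) and 3 (triangle). SOX2 held 35.9% of TPM but 20.6% of CPM, and SOX11 12.3% of TPM but 25.3% of CPM.

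The 9 other SOX genes had a median of 1.68 TPM, and 2 were high. SOX13 was at 73.4 ± 2.69 TPM and SOX12 at 71.7 ± 7.84 TPM, so that both stood above SOX21 in the mean. The remaining 7 were below SOX8 in the mean, from SOX14 at 8.62 TPM to SOX30 at 0.123 TPM. SOX17, which marks definitive endoderm, was at 1.68 ± 0.530 TPM, between SOX1 and SOX10. SOX18 and SOX30 had 0 reads in replicate 2, which allows up to 3 reads. A difference between the listed and the other genes was not tested, since the list was chosen by name.

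Genes with a single uninterrupted exon were common among the 10, with 6 (SOX1, SOX2, SOX3, SOX4, SOX11, SOX21) against 5.31% of all protein-coding genes. They include the 5 high genes and SOX1. Noncoding genes named after the listed genes were at lower levels than their namesakes. SOX2-OT, a long noncoding RNA gene whose introns contain SOX2 on the same strand, had 74, 61 and 40 reads, and SOX2 exceeded it by 617 ± 194-fold in TPM. In CPM the ratio was 47.2 ± 14.9, since the exon union of SOX2-OT sums to 32836 bp and that of SOX2 to 2512 bp. SOX9-AS1 had 4, 5 and 2 reads, and SOX1-OT had 0 reads in all 3 libraries. SOX4 shares 168 bp of exon with a noncoding gene on the other strand (ENSG00000283480) that had 1, 1 and 2 reads, and SOX11 shares 74 bp with one on the same strand (ENSG00000242540) that had 8, 10 and 5.

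Whether the 3 libraries gave the same level of each gene was then asked. The count of each library was tested against the other 2 by an exact two-sided binomial test, given the totals of the libraries, over all 18451 genes with at least 20 reads in sum. P-values were adjusted by the Benjamini-Hochberg method over these genes and called below 0.05. Such a test compares libraries and not conditions, and it covers counting error only. Differences are log2 of CPM in a library over CPM in the other 2.

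In replicate 3, 4 of the 10 genes departed from the other 2 libraries. SOX2 was higher by 0.29 (adjusted p = 1.25e-13), SOX21 by 0.58 (adjusted p = 3.22e-09) and SOX11 by 0.18 (adjusted p = 1.02e-06) on the log2 scale, in the exact test. Among all genes tested, 7.03% were called higher in this replicate and 3.65% lower. SOX4 was lower, with a log2 difference of -0.14 (adjusted p = 0.000588, exact test). Among the pluripotency genes, UTF1 (1.23), PRDM14 (0.21) and POU5F1 (0.08) were called higher in this library. NANOG (-0.17) and TDGF1 (-0.17) were called lower, and SALL4, LIN28A, DPPA4 and DNMT3B were not called.

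The share called among all genes has to be read with depth, because small differences pass only in genes with many reads. Among the 6515 genes with at least 1000 reads, a limit chosen after the data were seen, 20.9% were called in replicate 3. SOX2, SOX4, SOX11 and SOX21 are 4 such genes, and all 4 were called. For the 6 genes with fewer reads, differences in replicate 3 ran from -0.14 for SOX10 to 0.62 for SOX1, and none passed the test at this depth.

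Replicate 1 was lower for SOX21 (-0.44, adjusted p = 8.86e-05) and SOX2 (-0.17, adjusted p = 0.000228) and higher for SOX4 (0.13, adjusted p = 0.00145) in the exact test, where 1.43% of all genes were called higher and 1.99% lower. Among genes with at least 1000 reads, as these 3 have, 7.28% were called in this replicate. In replicate 2, none of the 10 was called by the exact binomial test, and 0.629% of all genes were called higher and 1.63% lower. Before adjustment, 4 (SOX2, SOX8, SOX9 and SOX11) had a p below 0.05 in this test. The share of all genes at that unadjusted limit was not computed, so the 4 cannot be set against it. The calls were also made between pairs of libraries. Between replicates 1 and 2, none of the 10 was called, against 1.27% of all genes, and SOX2 was at 231 and 239 CPM, SOX4 at 347 and 326 CPM and SOX21 at 32.3 and 37.8 CPM. Between replicates 1 and 3, SOX2, SOX4, SOX11 and SOX21 were called, against 10.1% of all genes. Between replicates 2 and 3, SOX2, SOX11 and SOX21 were called, against 8.68%, and SOX4 was not, with 326 and 305 CPM. The shares for pairs of libraries cover all genes tested, and none was computed for genes with at least 1000 reads.

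**Figure D4:**
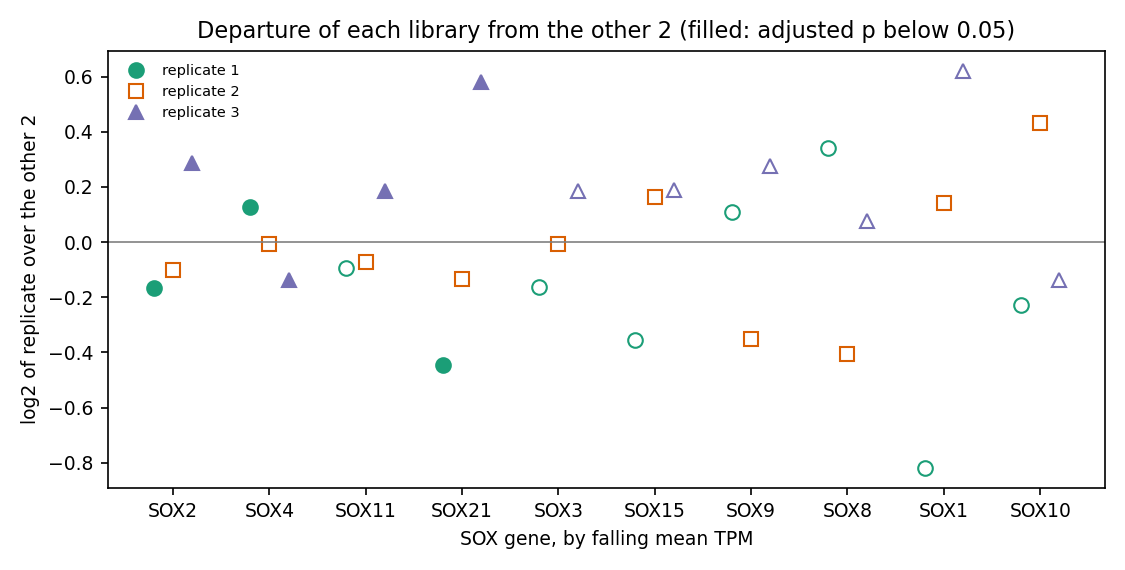
Departure of each library from the other 2 for the 10 SOX genes, as log2 of CPM in the library over CPM in the other 2, with filled symbols for an adjusted p below 0.05 in the exact binomial test. The filled symbols are 3 for replicate 1, none for replicate 2 and 4 for replicate 3, and all belong to SOX2, SOX4, SOX11 and SOX21.

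Departures in replicate 3 went with base composition over all genes, with a Spearman correlation of 0.287 between the log2 difference and the GC content of the exons (a description across genes of shared libraries). When each gene was compared only within 1 of 20 bins of GC content, the same 4 SOX genes were called in replicate 3. The same 3 were called in replicate 1. Of all genes, 5.53% were called in replicate 3 and 3.15% in replicate 1. Among genes with at least 1000 reads, as these 4 have, the shares within bins were 11.2% and 6.78%. SOX2 was at 0.31 and SOX21 at 0.54 in replicate 3 on this scale. SOX3, with 63.3% GC in its exons, went from 0.19 to -0.12 and was called on neither scale.

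The biological coefficient of variation (BCV), the spread between libraries beyond counting error as estimated by edgeR, was set beside genes of like abundance. SOX21 had a BCV of 0.116, above 99.6% of the 500 such genes, whose median was 0.0562. SOX2 had 0.0684, above 98.0% of its 500, and SOX1 had 0.152, above 90.4%. SOX8 stood above 87.4% of its 500, SOX4 above 87.2%, SOX11 above 82.8%, SOX9 above 79.8% and SOX15 above 63.4%. SOX3, with 0.0683, lay within the middle of its like. The BCV of SOX21 was 0.0683 without replicate 1, 0.115 without replicate 2 and 0.0343 without replicate 3, and that of SOX2 was 0.0578, 0.0768 and 0.0318. Without replicate 3, the value was lower for all 9 listed genes that had one, so that the drop was not particular to SOX21 and SOX2. SOX10 had too few reads to be kept for this estimate.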

How the data were processed

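Reads had been trimmed and aligned to GRCh38 by the authors, and the submitters' processing notes name Trim Galore 0.4.4, TopHat2 2.1.1 and Cufflinks 2.2.1. They deposited raw counts, whole numbers of reads per Ensembl gene, without normalization. Which program counted them, with which gene models and with or without strand, is not given in the sources used here. Nothing says that the replicates came from separate cultures, so differences between these libraries may be technical. The p-values set such differences against counting error only and do not measure the spread between replicates.

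TPM was computed here from the counts and the exon union of GENCODE release 44 (56948 of 58051 identifiers matched), and CPM from the total counts. Coding stretches of the HMG box were found by the longest word of 10 residues common to the 10 encoded proteins, extended without gaps. Extension went on while, averaged over a window of 5 positions, at least 5 of the 10 genes shared the commonest residue. Identical runs with other transcripts were sought with blastn 2.17.0 (word size 28), and those of at least 50 bases were listed. The 45-base run of SOX9 and SOX10 also came from this search, since their longest run within the aligned stretch is 33 bases. Log2 differences used a pseudocount of 0.5 reads. BCV came from edgeR 4.0.16 (intercept-only, filterByExpr, 15997 genes), and DESeq2 1.42.0 gave size factors and dispersions for alternatives. Scripts ran in Python 3.11.15 (biopython 1.88, matplotlib 3.10.9, scipy 1.17.1, pandas 2.3.3, numpy 2.4.6) and R 4.3.3. The tests were checked on simulated counts. Intervals and limits for a count of 0 (3 reads) cover counting error only, since PCR reads without molecular identifiers are not independent molecules.

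The 10 genes, the marker lists and the tests were chosen with earlier results of these data known. Named besides the 10 were the other SOX genes outside the Y chromosome, genes overlapping or named after a listed gene, marker genes, and the protein-coding genes next in level to the highest and the lowest listed gene. Likeness of pattern across samples was not computed, since 3 replicates of 1 condition hold no pattern. The counts were not tested between groups, and the other assays of the study were not analysed here. Some marker genes and a stretch of sequence are not reported here.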

Additional observations from a re-analysis of the deposited data

How the results depend on the processing

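Length and scale moved the levels most. On CPM the share of SOX2 was 20.6% in place of 35.9%, and that of the 10 genes 80.7% in place of 85.5%. With the longest transcript as length, SOX2, SOX4 and SOX11 held 68.3% in place of 72.3%, and the 10 genes 81.0%. Other scalings moved the 10 levels by a factor that was largely common to them, 0.752 to 1.05 (median 0.753) with the longest transcript, 0.486 to 0.513 with unshared exon bases and 1.24 when scaled over protein-coding genes. For the remaining settings, a level was counted as moved when it changed by at least its own SD over the 3 replicates. By this rule TMM or DESeq2 size factors, or leaving out mitochondrial genes, moved none, and thinning to 10% of counts moved 1. Leaving out a replicate or taking the median cannot shift a mean of 3 values by their SD. These settings could therefore move no level, and their outcome says nothing on robustness. The order changed on CPM only. With classes drawn over all genes, 8 of the 10 were high in place of 5. The number of genes called in replicate 1 (631) was 217 to 1694 when a replicate was left out, that in replicate 2 (416) was 217 to 1481, and within GC bins replicate 2 had 168 and replicate 3 had 1010 in place of 1970. The median BCV of the 9 listed genes kept, 0.0917, was 0.132 with shrunken and 0.0889 with gene-wise DESeq2 dispersions (10 genes each) and 0.0386 (without replicate 3) to 0.101 when a replicate was left out. The causes were not tested. No paired analysis was possible because only 1 condition was sequenced, so that replicate numbers pair no groups. Few reads limit SOX1 and SOX10, for which 1 read is worth 0.0852 and 0.0805 TPM.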
